A study of Mus musculus with 6 samples.

Results

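Transcripts of 39 genes of mitosis and the G2/M transition were followed in mouse leukemia cells. The members were taken by symbol from the deposited table of 24062 genes as mitotic kinases, cyclins, and spindle and kinetochore genes, and all 39 were found there. RNA was sequenced from lineage-negative hematopoietic cells, depleted of cells with surface markers of mature blood, that had been transduced with a retrovirus carrying MLL-AF9, an oncogenic fusion found in acute myeloid leukemia. The KO-labelled group (3 libraries) came from A20 f/f Rosa Cre-ER mice, whose floxed A20 gene can be deleted by a tamoxifen-activated Cre recombinase, and the WT-labelled group (3 libraries) from A20+/+ Rosa Cre-ER mice. Both groups grew in medium with human IL-6, mouse IL-3 and SCF, and both received 1 µM 4-hydroxytamoxifen for 48 h, so MLL-AF9, Cre-ER and drug are common to all libraries. The comparison asks what A20 deletion changes in these cells. Any other difference that follows the label cannot be told apart from the deletion. Nothing in the labels ties replicates to separate mice or cultures. Each p-value therefore reflects only the variation among these 6 libraries, part or all of which may be technical.

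Cells enter mitosis when the kinase CDK1, paired with cyclin A and then cyclin B, is switched on by CDC25 phosphatases. Spindle, kinetochore and checkpoint proteins then hold and part the chromosomes, and the anaphase-promoting complex destroys cyclins and securin to end the division. Most genes of this program are transcribed in late S phase, G2 and M, are silenced in resting cells by the DREAM complex and are activated in cycling cells by MYBL2 and FOXM1. DREAM reaches them through a promoter element named CHR, often placed downstream of CCAAT boxes bound by NF-Y. In bulk RNA fewer cells in G2 or M and less RNA per cell cannot be told apart.

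The shared promoter design was visible in the RefSeq promoter table (GRCm38.p6, the assembly also named mm10), which gives 250 bases before to 50 after each start site and held 32 of the 39 members. The CHR was searched as TTTGAA or TTCGAA and the NF-Y box as CCAAT, each on both strands, and a CHR and an NF-Y match overlapped in 1 member window. A CHR match stood in the window of 26 of 32 members (81.2%), against 19.3% of 16749 other genes of the count table. An NF-Y match stood in 27 of 32 (84.4%) against 42%, and both occurred in 24 of 32 (75%) against 7.87%. Of 40 CHR matches in member windows, 27 began within 50 bases of the start site (67.5%), against 25.2% of 7260 matches over all promoters. Ect2, Prc1 and Bub3 had overlapping windows for different start sites, and their sites are counted once per window. These are letter matches and were not tested as binding sites. Shown here are the windows of Mad2l1, Cenpf and Kif23, which passed the test described below and are in the table, and of Ccnb2 and Plk1, which did not pass. Capitals mark CHR and NF-Y matches. The windows are chr6:66534971-66535270 on the plus strand for Mad2l1, chr1:189688037-189688336 on the minus strand for Cenpf, chr9:61946750-61947049 on the minus strand for Kif23, chr9:70421505-70421804 on the minus strand for Ccnb2, and chr7:122159185-122159484 on the plus strand for Plk1.
Mad2l1: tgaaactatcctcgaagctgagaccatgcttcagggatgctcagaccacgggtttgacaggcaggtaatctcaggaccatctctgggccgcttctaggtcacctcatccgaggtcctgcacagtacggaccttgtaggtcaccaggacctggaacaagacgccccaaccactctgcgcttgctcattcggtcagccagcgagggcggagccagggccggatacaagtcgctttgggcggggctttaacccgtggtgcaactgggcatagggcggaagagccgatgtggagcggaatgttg
Cenpf: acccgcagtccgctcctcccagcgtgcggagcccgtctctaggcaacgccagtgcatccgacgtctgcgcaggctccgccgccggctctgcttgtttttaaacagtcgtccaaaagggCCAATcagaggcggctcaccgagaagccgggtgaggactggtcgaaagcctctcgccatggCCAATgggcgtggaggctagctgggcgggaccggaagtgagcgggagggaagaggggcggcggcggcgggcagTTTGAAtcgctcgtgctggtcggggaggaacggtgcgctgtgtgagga
Kif23: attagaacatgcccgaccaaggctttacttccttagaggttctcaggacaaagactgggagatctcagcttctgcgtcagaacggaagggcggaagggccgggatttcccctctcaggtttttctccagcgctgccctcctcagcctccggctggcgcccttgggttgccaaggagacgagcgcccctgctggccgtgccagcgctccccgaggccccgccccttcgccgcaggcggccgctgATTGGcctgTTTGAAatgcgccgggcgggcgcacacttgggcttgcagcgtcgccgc
Ccnb2: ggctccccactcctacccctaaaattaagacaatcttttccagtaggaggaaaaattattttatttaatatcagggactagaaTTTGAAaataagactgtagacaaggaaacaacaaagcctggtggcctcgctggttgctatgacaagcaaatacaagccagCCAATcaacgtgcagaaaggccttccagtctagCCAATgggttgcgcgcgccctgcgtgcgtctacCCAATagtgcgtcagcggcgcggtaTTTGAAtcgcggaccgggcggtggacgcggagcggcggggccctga
Plk1: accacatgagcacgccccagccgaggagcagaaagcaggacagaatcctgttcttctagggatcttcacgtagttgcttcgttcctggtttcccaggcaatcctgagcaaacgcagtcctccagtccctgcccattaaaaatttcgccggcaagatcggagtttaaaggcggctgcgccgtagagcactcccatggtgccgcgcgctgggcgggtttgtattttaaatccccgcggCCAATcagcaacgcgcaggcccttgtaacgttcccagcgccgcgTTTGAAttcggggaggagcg
Cenpf and Kif23 each carried TTTGAA from base 3 of the transcript with an NF-Y match upstream, Ccnb2 at base 5 and Plk1 at base 31. The Mad2l1 window held neither motif, but it ends upstream of the gene start in the annotation used for positions, so it does not cover that start. The windows of Birc5 and Nusap1 held neither motif, while Ccnb1, Nek2 and Cenpe had an NF-Y match without a CHR match. The median log2 fold change between the label groups was −0.43 over the 26 members with a CHR match (−0.89 to −0.04) and −0.48 over the 6 without (−1.29 to −0.22), so the ranges overlapped.

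**Figure D1:**
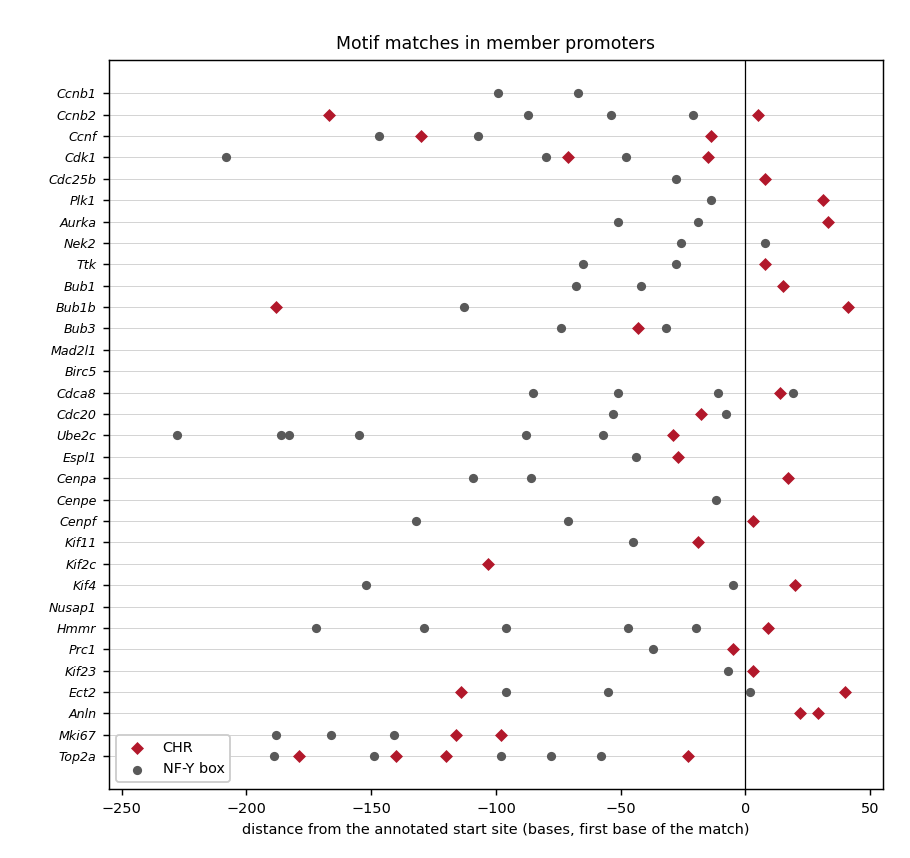
Position of CHR matches (red diamonds) and NF-Y box matches (grey circles) in the promoter windows of 32 members, with distance in bases from the annotated start site on the x axis and the first listed window of each gene on the y axis. Most CHR matches lie close to the start site, most NF-Y matches lie upstream of it, and Mad2l1, Birc5 and Nusap1 show neither.

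The libraries held 16113320 to 25415274 counted reads, and each member had 271 to 21430 reads in each library, so all 39 passed the low-count filter. Tnfaip3, the gene for A20, was higher where the label says knockout, at 100.1, 74.1 and 79.1 CPM in KO-labelled libraries against 7.39, 8.67 and 8.24 CPM in WT-labelled libraries (log2 fold change 3.38, SE 0.17). A count per gene cannot separate the floxed exons from the others, so it does not measure the deletion, and groups are named here by label. Whether the labels were exchanged was not tested, and exchanged labels would turn round every direction given here. Within each label, replicate 1 differed widely from the other libraries, for instance in Gapdh (2716, 254 and 248 CPM in KO-labelled against 2645, 181 and 167 CPM in WT-labelled replicates 1, 2 and 3). Xist, the RNA of the inactive X chromosome, was at 0 to 4.77 CPM in KO-labelled and 564 to 2109 CPM in WT-labelled libraries. That split followed the label in every library, so what it reflects cannot be told apart from the A20 genotype. Its part in the results was not tested. CPM values are read counts scaled to library size with TMM factors.

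The checkpoint gene Mad2l1, the midzone motor gene Kif23, the kinetochore gene Cenpf and the transcription factor gene Foxm1 fell in KO-labelled libraries, and the other 35 members did not pass the test. With edgeR's quasi-likelihood fit and a Benjamini-Hochberg adjusted p below 0.05, 4 of 39 members were lower (10.3%) and 0 higher, while 27.3% of all 12126 tested genes were called, 13.7% lower and 13.7% higher. At an unadjusted p under 0.05, 16 members were lower and 0 higher, while 20.3% of all tested genes were lower and 19.6% higher at that threshold. DESeq2 called 7 members lower and 0 higher (16.7% and 17% of tested genes), and limma-voom called 4 lower and 0 higher (12.9% and 14.3%). The sign was the same throughout: the log2 fold change was negative for all 39, with a median of −0.45, against 52.8% negative and a median of −0.04 over all tested genes. Mad2l1 was the only member called with at least a 2-fold change (8.27% of tested genes were called lower by that rule), and at an adjusted p under 0.01 it was again the only member (7.2%). The 95% interval included 0 for 23 members and a 2-fold fall for 14, so misses of the threshold do not show equal levels. In 19 members (48.7%) every KO-labelled library lay below every WT-labelled library, against 23.5% of all tested genes.

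The count of members called lower moved with the libraries used. With KO-labelled replicate 1 left out it was 3 (9.49% of tested genes called lower), with replicate 2 of that label left out 2 (7.41%) and with its replicate 3 left out 2 (7.54%). Leaving out WT-labelled replicate 1 gave 4 (20.8%), its replicate 2 gave 3 (9.95%) and its replicate 3 gave 1 (10.2%). It was 6 with a term for replicate 1 (14.6%), 1 with the replicate number as a block (8.53%), 1 with KO-labelled replicates 2 and 3 summed into a single library (7.53%), and 1 with replicates 2 and 3 summed in each group (4.12%). Mad2l1 was called in each of these fits.

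Replicate 1 of either group lay at the ends of the range for most members. KO-labelled replicate 1 was the lowest of the 6 libraries for 38 of 39 members (23.1% of all tested genes) and WT-labelled replicate 1 the highest for 32 (29.2%). Both held for 31 members, against 11% of tested genes. The median member deviated from its own mean over the 6 libraries by −0.61, −0.03 and −0.02 (log2 CPM + 1) in KO-labelled replicates 1, 2 and 3, and by 0.48, 0.05 and 0.15 in WT-labelled replicates 1, 2 and 3. Replicates 2 and 3 of both groups thus lay near the centre, with replicate 1 of either group at opposite ends. Summed over the members, the level was 3060, 4517 and 4479 CPM in KO-labelled libraries (mean 4019 ± 830, SD, n = 3), against 6326, 4924 and 5165 CPM in WT-labelled libraries (5472 ± 750). The groups did not overlap, but the gap between KO-labelled replicate 2 and WT-labelled replicate 2 was narrow beside the spread within either group.

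**Figure D2:**
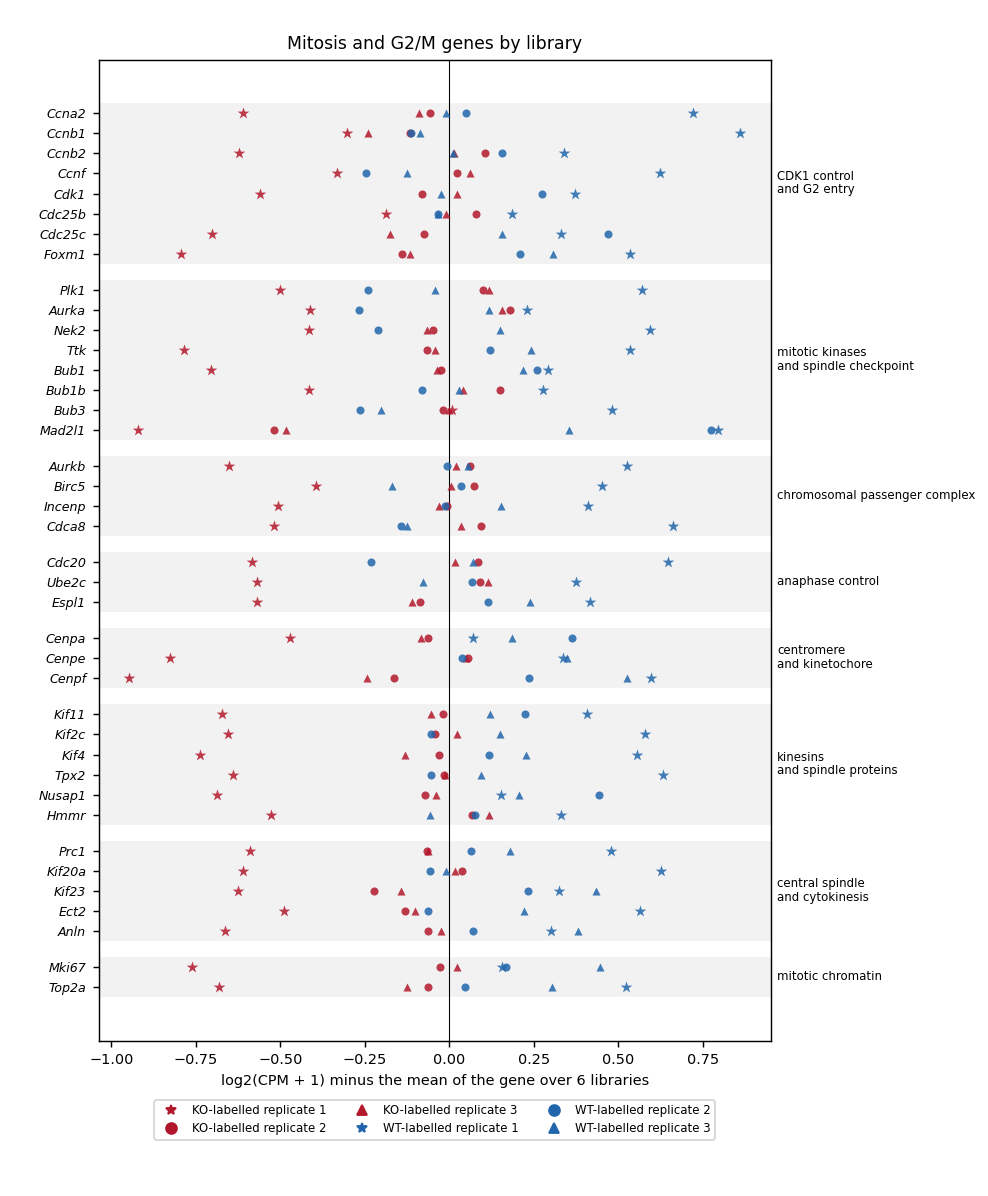
Each row is a member, grouped by role, and the x axis gives its log2(CPM + 1) in a library minus its mean over the 6 libraries, with red for KO-labelled, blue for WT-labelled, stars for replicate 1, circles for replicate 2 and triangles for replicate 3. Red stars lie at the low end for 38 of 39 members and blue stars at the high end for 32, with replicates 2 and 3 of both groups close to the centre except for a few genes such as Mad2l1.

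Values of the members were more negative in the replicate 1 pair than in replicates 2 and 3. In the replicate 1 pair, with 1 library per group and no test, the difference KO-labelled minus WT-labelled (log2 CPM + 1) was negative for all 39 members, from −1.72 for Mad2l1 to −0.37 for Cdc25b, with a median of −1.03. Over all tested genes that difference was negative for 6344 of 12126, with a median of −0.04. In replicates 2 and 3 alone the edgeR log2 fold change was negative for 26 members and positive for 13, with a median of −0.11 and a range of −1.10 to 0.23. Over all genes tested there it was negative for 6255 of 12201, with a median of −0.02. The replicate 1 pair had the more negative value for all 39, although its log2(CPM + 1) difference and the edgeR value are not the same measure. For the 31 members with KO-labelled replicate 1 lowest and WT-labelled replicate 1 highest this order follows from those places. It is therefore largely the same observation and not a further result. In replicates 2 and 3 alone edgeR called 12 members lower (Mad2l1, Cenpf, Kif23, Foxm1, Cdc25c, Cenpa, Nusap1, Bub1, Espl1, Kif11, Kif4 and Mki67) and 1 higher (Bub3), which is 33.3% of members where 52.9% of 12201 tested genes were called, 27.1% lower and 25.8% higher. These calls rest on a small spread, since KO-labelled replicates 2 and 3 differed by a chi-square per degree of freedom of 2.37, WT-labelled replicates 2 and 3 by 25.2, and replicate 1 from its own group by 79.7 to 231. Whether the label effect differs between the replicate sets was not tested.

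**Figure D3:**
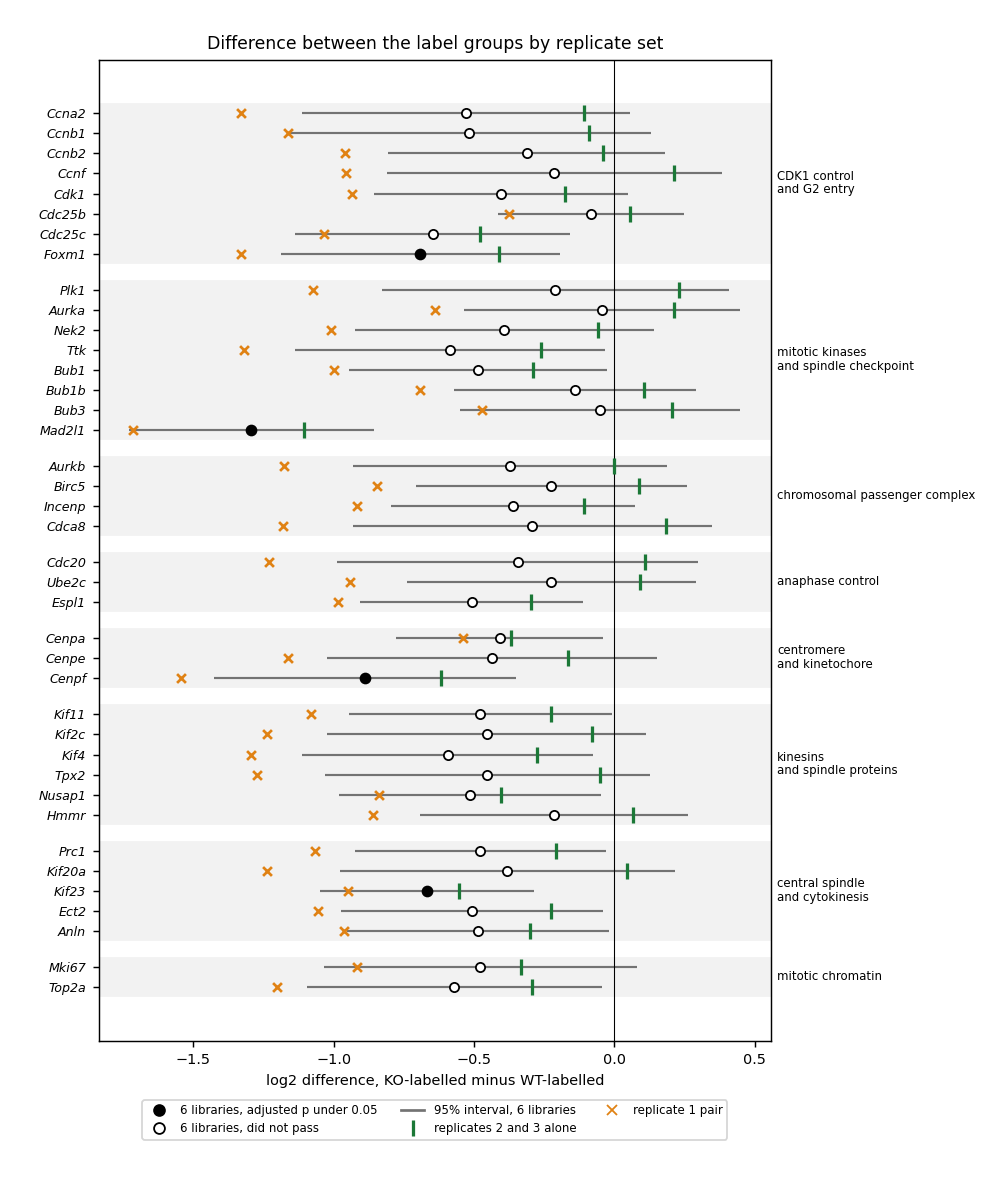
Log2 difference between KO-labelled and WT-labelled libraries for each member, from the fit over 6 libraries (circles, filled where the adjusted p is under 0.05, with 95% intervals), from replicates 2 and 3 alone (green bars) and from the replicate 1 pair (orange crosses). Circles and bars are edgeR log2 fold changes, and crosses are differences in log2(CPM + 1). Every cross lies left of its green bar, and 13 green bars lie right of 0.

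Among genes that control CDK1 and entry into mitosis, 1 of 8 fell, where 13.7% of all tested genes were called lower. The same share stands beside the count of every role below, and no role was tested against it. Foxm1, the transcription factor that drives G2/M genes (chr6:128362967-128376146, plus strand), had 25.3, 40.4 and 41.1 CPM in KO-labelled libraries against 65.2, 51.7 and 55.5 CPM in WT-labelled libraries. The groups did not overlap, and the log2 fold change was −0.69 (SE 0.21; edgeR adjusted p = 0.049). That call was at the threshold and did not pass when any 1 of the 6 libraries was left out (adjusted p from 0.0603 without WT-labelled replicate 1 to 0.105 without WT-labelled replicate 3). Ccnb1, cyclin B1, had 112, 128 and 117 CPM in KO-labelled libraries against 252, 128 and 130.03 CPM in WT-labelled libraries. Apart from WT-labelled replicate 1 the libraries lay within a narrow band, and the fit over 6 gave −0.52 (95% interval −1.16 to 0.13; edgeR adjusted p = 0.21). Cdc25c, a phosphatase that activates CDK1, had 12.2, 19.4 and 18.0 CPM in KO-labelled against 26.04, 28.8 and 22.9 CPM in WT-labelled libraries (log2 fold change −0.65, edgeR adjusted p = 0.058), and passed in replicates 2 and 3 alone (adjusted p = 0.028). Cdk1 itself averaged 180.5 ± 36.8 CPM in KO-labelled and 239 ± 33.2 CPM in WT-labelled libraries (SD, n = 3 each), and Ccna2, cyclin A2, 129.97 ± 26.2 and 187 ± 56.4 CPM. For Ccnb2 (−0.31), Ccnf (−0.21) and Cdc25b (−0.08) the log2 fold changes were smaller and the groups overlapped.

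Among mitotic kinases and spindle checkpoint genes 1 of 8 fell (13.7% of all tested genes were called lower), and it had the largest change of all members. Mad2l1 encodes MAD2, which binds CDC20 at unattached kinetochores and delays anaphase (chr6:66535390-66547220, plus strand). It had 76.3, 101 and 104 CPM in KO-labelled libraries against 253, 249.9 and 186 CPM in WT-labelled libraries. Every KO-labelled library lay well below every WT-labelled library, including within replicates 2 and 3, with a log2 fold change of −1.29 (SE 0.18; 95% interval −1.73 to −0.86; edgeR adjusted p = 0.00281), or 0.408 of the WT-labelled level. It passed under all 19 alternatives, with log2 fold changes of −1.42 to −1.10 and adjusted p of 3.24e-09 to 0.0344. Relative to the median member of the same library, Mad2l1 stood 0.38, 0.14 and 0.24 higher (log2) in KO-labelled libraries, against 1.02, 1.44 and 0.99 in WT-labelled libraries. The fall of Mad2l1 was thus larger than that of the typical member in each replicate set, a comparison made after its values were seen.

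Other checkpoint genes did not pass over 6 libraries. Bub3, which docks the checkpoint kinase BUB1 at kinetochores, had 175, 172 and 174 CPM in KO-labelled libraries against 243, 145 and 151 CPM in WT-labelled libraries. The KO-labelled values lay inside the WT-labelled range, the fit over 6 libraries gave −0.05 (95% interval −0.55 to 0.45; edgeR adjusted p = 0.891), and replicates 2 and 3 alone gave 0.21 (adjusted p = 0.0386), the opposite sign. Bub1 had 48.7, 78.6 and 77.9 CPM in KO-labelled against 98.2, 95.8 and 93.1 CPM in WT-labelled libraries, without overlap, and did not pass over 6 libraries (log2 fold change −0.49, edgeR adjusted p = 0.109) but did in replicates 2 and 3 alone (−0.29, adjusted p = 0.0139). Bub1b, the BUBR1 gene, gave −0.14, and Ttk, the kinase MPS1 that starts the checkpoint, −0.59. The kinase genes Plk1, Aurka and Nek2 overlapped between groups. Plk1, which acts from mitotic entry to cytokinesis, had 49.9, 76.1 and 77.1 CPM in KO-labelled libraries against 106, 59.9 and 69.0 CPM in WT-labelled libraries. Its log2 fold change of −0.21 (95% interval −0.83 to 0.41) was 0.23 in replicates 2 and 3 alone, and Aurka, the spindle pole kinase, gave −0.04 and 0.21. Nek2, a centrosome kinase, averaged 38.9 ± 5.49 CPM in KO-labelled and 50.9 ± 14.5 CPM in WT-labelled libraries (SD, n = 3 each).

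**Figure D4:**
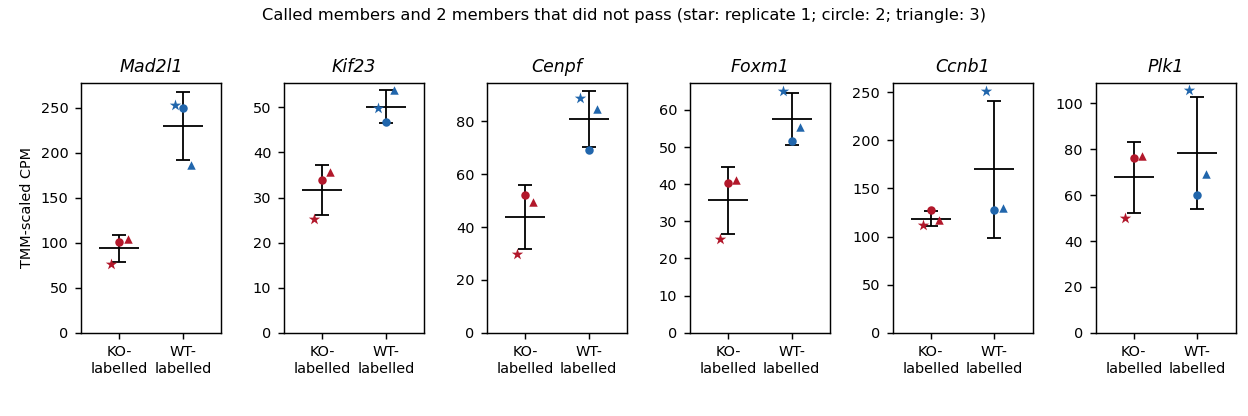
Level in TMM-scaled CPM of the 4 called members and of Ccnb1 and Plk1, which did not pass, with KO-labelled libraries in red on the left and WT-labelled libraries in blue on the right of each panel, and bars for mean ± SD (n = 3 libraries each). Mad2l1, Kif23, Cenpf and Foxm1 do not overlap between groups, while the Ccnb1 and Plk1 groups differ mainly by the stars of replicate 1.

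None of the 4 genes of the chromosomal passenger complex, which corrects faulty spindle attachments, passed over 6 libraries. Incenp, the scaffold and the most abundant of them per kilobase of exon, had 109.9, 156 and 153 CPM in KO-labelled libraries against 208, 155 and 174 CPM in WT-labelled libraries (log2 fold change −0.36, 95% interval −0.80 to 0.07; edgeR adjusted p = 0.194). The kinase gene Aurkb gave −0.37, Cdca8 −0.29 and Birc5, the survivin gene, −0.22, and in replicates 2 and 3 alone Aurkb, Cdca8 and Birc5 were at 0.001, 0.18 and 0.09. None of these 3 passed in replicates 2 and 3 alone by edgeR (adjusted p = 0.992, 0.0682 and 0.448 for Aurkb, Cdca8 and Birc5).

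Of the anaphase genes 0 of 3 were called. Cdc20, the activator of the anaphase-promoting complex, had 57.6, 92.1 and 87.9 CPM in KO-labelled libraries against 137, 73.8 and 91.1 CPM in WT-labelled libraries, and the groups overlapped. Ube2c, the ubiquitin-conjugating enzyme of that complex, had 82.0, 130.1 and 132 CPM in KO-labelled libraries against 158, 128 and 116 CPM in WT-labelled libraries, and overlapped too (log2 fold change −0.22, edgeR adjusted p = 0.497). Espl1, the separase that cuts cohesin, did not overlap, with 42.4, 59.7 and 58.7 CPM in KO-labelled against 84.96, 68.7 and 75.0 CPM in WT-labelled libraries (log2 fold change −0.51, SE 0.17; edgeR adjusted p = 0.0641).

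Of 3 centromere and kinetochore members 1 fell, where 13.7% of all tested genes were called lower. Cenpf, a large kinetochore and nuclear matrix protein (chr1:189640606-189688086, minus strand), had 29.9, 52.1 and 49.3 CPM in KO-labelled libraries against 88.9, 69.1 and 84.7 CPM in WT-labelled libraries. The groups did not overlap in any replicate set, with a log2 fold change of −0.89 (SE 0.23; edgeR adjusted p = 0.0271), and the call did not pass without KO-labelled replicate 3 (adjusted p = 0.0616) or WT-labelled replicate 3 (0.0832). Cenpa, the histone H3 variant that marks centromeres, had 98.8, 131 and 129.6 CPM in KO-labelled against 144, 177 and 156 CPM in WT-labelled libraries (log2 fold change −0.41, edgeR adjusted p = 0.0962). Cenpe, a kinetochore kinesin, overlapped between groups (−0.44).

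Among kinesins and spindle proteins 0 of 6 passed, although each was lower on average. Kif11, the motor that separates spindle poles, had 114, 180.2 and 176 CPM in KO-labelled libraries against 243, 213 and 199 CPM in WT-labelled libraries. These did not overlap (log2 fold change −0.48, SE 0.20; edgeR adjusted p = 0.12). Nusap1, which bundles spindle microtubules, and Kif4, a chromosome-bound motor and the only X-linked member, also separated the groups, with −0.51 and −0.59. Kif2c, a microtubule depolymerase, Tpx2, the activator of Aurora A, and Hmmr overlapped between groups (−0.45, −0.45 and −0.21).

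Central spindle and cytokinesis genes included 1 call among 5, where 13.7% of all tested genes were called lower. Kif23, a motor of the centralspindlin complex that builds the midzone (chr9:61915905-61946774, minus strand), had 25.3, 33.8 and 35.7 CPM in KO-labelled libraries against 49.9, 46.7 and 53.9 CPM in WT-labelled libraries. The groups stood clearly apart in each replicate set, with a log2 fold change of −0.67 (SE 0.16; edgeR adjusted p = 0.0219), and the call did not pass without KO-labelled replicate 2 (adjusted p = 0.0673) or WT-labelled replicate 3 (0.0714). Prc1, the midzone crosslinker, Ect2, the activator of RhoA at the cleavage furrow, and Anln, the ring protein anillin, gave −0.48, −0.51 and −0.49 without overlap and without passing. Kif20a, another midzone motor, overlapped (−0.38).

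The general proliferation markers did not pass either. Top2a, the topoisomerase that untangles chromosomes, had 388, 596 and 571 CPM in KO-labelled libraries against 894, 643 and 769 CPM in WT-labelled libraries (log2 fold change −0.57, SE 0.22; edgeR adjusted p = 0.101). Mki67, whose protein coats mitotic chromosomes, had 292, 486 and 504 CPM in KO-labelled libraries against 552, 557 and 676 CPM in WT-labelled libraries (−0.48, SE 0.24; edgeR adjusted p = 0.183). Neither overlapped between groups. Per kilobase of annotated exon, Top2a had the highest level of all members in WT-labelled libraries (57.5 CPM per kb in KO-labelled and 85.3 in WT-labelled) and Ccnb2 in KO-labelled libraries (60.3 in KO-labelled and 74.9 in WT-labelled), while Cenpf had the lowest in both (2.83 in KO-labelled and 5.24 in WT-labelled).

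Read assignment limits a few members. At least 20% of the 31-base stretches of Ccnb1 (27.8%), Cdc20 (26.7%), Kif20a (26.7%) and Ube2c (25.3%) also occur in transcripts of other genes, chiefly a Ccnb1 pseudogene, Gm7856, the opposite-strand gene Cdc23 and the opposite-strand gene Tnnc2, so their counts are uncertain. For the 4 called members the share was 1 to 3%. Counts of members that overlap a gene on the other strand depend on the strand setting of the counting, which the sources used here do not give.

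The rest of the mitotic machinery was read from lists drawn up with earlier results of these data known. Of 38 other kinetochore and centromere genes 11 fell, 0 rose and 27 did not pass (28.9% lower against 13.7% of all tested genes, median log2 fold change −0.39), and between 2 and 11 fell when any 1 library was left out. Cenpk, a subunit of the constitutive centromere network, averaged 11.1 ± 1.40 CPM in KO-labelled and 26.02 ± 4.23 CPM in WT-labelled libraries (log2 fold change −1.23), Hjurp, the chaperone that loads CENP-A, 10.7 ± 1.82 and 21.4 ± 4.55 CPM (−1.004), and Bod1 14.7 ± 1.34 and 22.995 ± 1.87 CPM (−0.64). Of 19 condensin and cohesin genes 6 fell and 0 rose (31.6% lower, median −0.41), among them Ncapd3 (76.7 ± 18.1 CPM in KO-labelled and 134 ± 2.16 CPM in WT-labelled libraries), Ncaph (45.2 ± 8.99 and 78.2 ± 10.2 CPM) and the cohesin core gene Smc1a (193 ± 23.2 and 340.4 ± 85.03 CPM). Without WT-labelled replicate 3, 0 of these 19 fell.

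Other spindle, centrosome and cytokinesis genes numbered 41, of which 8 fell (19.5%), 1 rose and 32 did not pass (median −0.53), and 4 fell when KO-labelled replicate 2 or 3 or WT-labelled replicate 2 or 3 was left out. H2afx, a histone variant gene placed in that list, averaged 29.9 ± 2.65 CPM in KO-labelled and 84.5 ± 19.0 CPM in WT-labelled libraries (log2 fold change −1.50), Depdc1a 12.3 ± 0.43 and 24.2 ± 4.24 CPM, and Cep55, which directs the final cut between daughter cells, 34.9 ± 8.72 and 64.99 ± 5.31 CPM. Among 18 subunits and regulators of the anaphase-promoting complex, Anapc4 rose (120.2 ± 10.2 CPM in KO-labelled and 71.2 ± 8.21 CPM in WT-labelled libraries), Anapc5 fell (188 ± 16.6 and 319 ± 72.5 CPM) and 16 did not pass (median 0.002). Without any 1 of the KO-labelled libraries 0 of these 18 fell. Of 12 DREAM and MYBL2-MuvB genes only Rbl1, which encodes the pocket protein p107 of DREAM, passed, at 58.6 ± 11.1 CPM in KO-labelled and 95.7 ± 7.23 CPM in WT-labelled libraries (log2 fold change −0.71, SE 0.17; edgeR adjusted p = 0.0199). Leaving out KO-labelled replicate 2, KO-labelled replicate 3 or WT-labelled replicate 3 left 0 of the 12 called.

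Checkpoint genes and CDK1 modifiers were called in both directions. Of 21, 5 rose, 7 fell and 9 did not pass (33.3% lower against 13.7% of all tested genes, median −0.04). With any 1 KO-labelled library left out 3 rose and 2 fell, and leaving out WT-labelled replicate 2 or 3 gave 4 that fell, with 5 and 3 that rose. Cdkn1a, which encodes the CDK inhibitor p21, was at 323, 278 and 273 CPM in KO-labelled libraries against 77.1, 93.1 and 96.8 CPM in WT-labelled libraries, without overlap (log2 fold change 1.71, SE 0.15; edgeR adjusted p = 3.15e-04). The stress gene Gadd45a rose to 28.2 ± 2.12 CPM in KO-labelled libraries, against 12.3 ± 1.94 CPM in WT-labelled libraries, and Ccng1, a cyclin G gene induced by p53, to 592 ± 32.6 CPM against 272 ± 45.8 CPM. Among those that fell, named after their values were seen, were the kinases that hold CDK1 inactive: Pkmyt1 (23.5 ± 4.00 CPM in KO-labelled and 47.9 ± 5.65 CPM in WT-labelled libraries) and Wee1 (57.5 ± 4.99 and 94.3 ± 20.5 CPM). Sfn had the largest fall of this list, at 5.43 ± 0.42 CPM in KO-labelled and 14.6 ± 4.95 CPM in WT-labelled libraries (log2 fold change −1.43). In replicates 2 and 3 alone the log2 fold change of Cdkn1a was 1.52.

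Genes of DNA replication, which are transcribed at G1/S, also had replicate 1 of either group at opposite ends. Their median deviation was −0.50, −0.05 and −0.07 in KO-labelled replicates 1, 2 and 3 and 0.62, −0.01 and −0.004 in WT-labelled replicates 1, 2 and 3, with the deviation of all tested genes between −0.03 and 0.02 in every library. Of 40 such genes 1 rose (E2f1, 69.0 ± 4.54 CPM in KO-labelled and 49.3 ± 4.79 CPM in WT-labelled libraries), 1 fell and 38 did not pass, with a median of −0.47 against −0.45 for the mitotic members. Leaving out any 1 library other than WT-labelled replicate 1 gave 0 that rose.

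**Figure D5:**
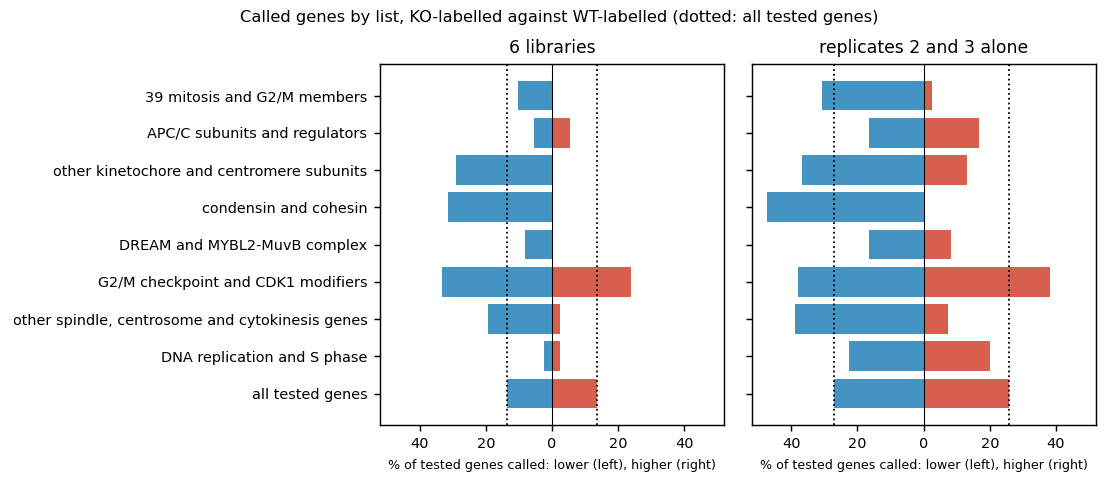
Share of tested genes called lower (blue, left) and higher (red, right) at an adjusted p under 0.05 in KO-labelled against WT-labelled libraries, for the 39 members, the related lists and all tested genes, over 6 libraries and in replicates 2 and 3 alone, with dotted lines at the share of all tested genes. Over 6 libraries the members reach 10.3% lower and 0 higher, below the dotted line at 13.7%.

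Marker genes of blood cells and of other cell types were read in the same libraries. Beside every count of calls below stand 13.7% of all tested genes lower and 13.7% higher. The lists held only 1 to 10 tested genes, and none was tested against these shares. The progenitor receptor gene Kit was at 100.3, 103 and 102 CPM in KO-labelled against 307, 351 and 403 CPM in WT-labelled libraries, and Cd34 at 1.17 to 1.99 CPM in KO-labelled against 597 to 632 CPM in WT-labelled libraries. Both belong to a list of 10 hematopoietic and progenitor markers and were named after their values were seen. Of these 10, 2 were higher, 4 lower and 4 did not pass, with a median log2 fold change of −0.03. The 2 higher ones were Hoxa10 (337 ± 48.5 CPM in KO-labelled and 123 ± 13.4 CPM in WT-labelled libraries) and Hoxa9 (253 ± 12.4 and 143 ± 15.0 CPM). Monocyte and macrophage markers (2 of 10 higher, 3 lower) summed to 3264 to 5233 CPM in KO-labelled and 1253 to 5073 CPM in WT-labelled libraries. The highest of these sums was in KO-labelled replicate 1 and the lowest in WT-labelled replicate 1, the reverse of their places for most mitotic members. Most of each sum came from Ly6c2 (1585 to 2140 CPM in KO-labelled and 836 to 1721 CPM in WT-labelled libraries) and Lyz2 (590 to 1019 and 243 to 2705 CPM). Neutrophil markers (1 of 5 tested higher, 1 lower) summed to 12.4 to 33.3 CPM in KO-labelled and 46.2 to 472 CPM in WT-labelled libraries. Mast cell and basophil markers (1 of 3 tested lower) summed to 11.6 to 13.6 and 21.1 to 36.4 CPM, erythroid and megakaryocyte markers (3 of 4 tested lower) to 2.09 to 2.55 and 24.03 to 39.4 CPM, and stromal and endothelial markers (1 of 4 tested higher, 2 lower) to 64.4 to 107 and 262 to 333 CPM. The erythroid and megakaryocyte calls of Pf4 and Epor rest on low levels, at most 1.59 and 1.15 CPM in any library. In WT-labelled libraries a single gene made up most of the neutrophil sum (Mmp8, 37.98 to 467 CPM), of the erythroid and megakaryocyte sum (Itga2b, 21.2 to 36.1 CPM) and of the stromal and endothelial sum (Pecam1, 258 to 329 CPM). The neutrophil gene Ngp was higher in KO-labelled libraries (3.29 to 3.82 CPM, against 0 to 0.17 CPM in WT-labelled libraries), as was the stromal gene Pdgfrb (2.70 to 4.03 CPM, against 0.23 to 0.50 CPM). B cell markers (the 1 tested, Cd79b, was lower) summed to at most 1.00 and 2.53 CPM and T and NK cell markers (the 1 tested, Cd4, was higher) to at most 4.78 and 1.09 CPM, with Ms4a1, Pax5, Cd3e, Cd8a and Ncr1 at 0 reads in every library, as were Retnlg, Tpsb2, Tpsab1, Fcer1a, Prss34, Hba-a1, Hbb-bs and Hbb-b1 of the other lists. The part of these shifts in the levels of the mitotic genes was not tested.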

How the data were processed

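Libraries were made with a TruSeq stranded mRNA kit, per the labels. The authors deposited raw read counts per gene; per the submitters' processing notes, FastQC 0.11.7, HISAT2 2.0.5 and featureCounts 1.5.2 were used with mm10. The annotation is not given in the sources used here. Counts were fitted over all genes with edgeR 4.0.16 under R 4.3.3 (TMM normalization, its default filter on low counts, robust quasi-likelihood test, Benjamini-Hochberg adjustment over 12126 genes at 0.05), KO-labelled minus WT-labelled, and the rows of the 39 members were taken from it. SE and 95% intervals come from the quasi-likelihood F statistic. Differences within the replicate 1 pair and deviations per library used log2(CPM + 1). Alternatives were other scalings and filters, DESeq2 1.42.0, limma-voom (limma 3.58.1), non-robust dispersion, a replicate block, a term for replicate 1, replicates 2 and 3 alone or summed, stricter thresholds and leaving out each library. The fits were also run on simulated counts drawn independently for each library. That run lacks the distance of replicate 1 from its group, so it does not show how the fits behave under it. Positions, exon lengths and 31-base sharing came from GENCODE M21 in Python 3.11.15. Members, lists and alternatives were chosen with earlier results of these data known. Per-library values were given for up to 2 called members per role, or else the most abundant by CPM, with others added after their values were seen, and for up to 3 called genes per related list the group means. No replicate pair differed by as little as counting noise. The replicate numbers were not used as pairs. Some withheld genes of the lists are counted but not reported here by name.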

Additional observations from a re-analysis of the deposited data

How the results depend on the processing

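All 39 members stayed negative under every alternative over the whole set of 6 libraries, whatever the scaling, filter or tool. In replicates 2 and 3 alone 13 turned positive: Plk1 0.23, Aurka 0.21, Ccnf 0.21, Bub3 0.21, Cdca8 0.18, Cdc20 0.11, Bub1b 0.11, Ube2c 0.0903, Birc5 0.0894, Hmmr 0.0654, Cdc25b 0.0559, Kif20a 0.0447 and Aurkb 0.0010. With each library left out in turn, the log2 fold change ranged from −0.38 to 0.12 for Ccnf, −0.14 to 0.00274 for Cdc25b, −0.38 to 0.0745 for Plk1, −0.19 to 0.13 for Aurka, −0.25 to 0.0177 for Bub1b, −0.19 to 0.23 for Bub3 and −0.44 to 0.0328 for Cdca8, positive in each case only without replicate 1 of a group.

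The number of members called lower was 7 with DESeq2, 12 in replicates 2 and 3 alone with 1 higher, 6 with a term for replicate 1, 1 with a replicate block, 1 with KO-labelled replicates 2 and 3 summed, 1 with replicates 2 and 3 summed in each group, 1 at an adjusted p under 0.01, 1 with at least a 2-fold change, and 1 to 4 with each library left out. The cause of these shifts was not tested. The fits with summed libraries also have fewer samples. Over all genes 989 were higher and 1034 lower with the replicate block, 982 and 945 with KO-labelled replicates summed, 543 and 518 with both summed, 3149 and 3309 in replicates 2 and 3 alone, and 939 to 2712 higher and 916 to 2568 lower with each library left out. Of the called members Mad2l1 passed 19 of 19 alternatives, Cenpf and Kif23 14 each and Foxm1 8. With the replicate block Cenpf (adjusted p = 0.0776), Kif23 (0.0549) and Foxm1 (0.121) did not pass. Deviations of same-numbered libraries from their group means correlated at −0.07, −0.14 and 0.04 across genes, and not every library correlated best with its own number, so the libraries were not treated as pairs, although both replicate 1 libraries share a high Gapdh level.

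For the related lists, the genes called higher and lower with both replicate 1 libraries removed, followed by the ranges with 1 library removed, were 3 and 3 (1 to 2 and 0 to 1) for the anaphase-promoting complex, 5 and 14 (0 to 4 and 2 to 11) for other kinetochore genes, 0 and 9 (lower 0 to 6) for condensin and cohesin, 1 and 2 (lower 0 to 2) for DREAM genes, 8 and 8 (3 to 5 and 2 to 7) for checkpoint genes, 3 and 16 (0 to 2 and 4 to 10) for other spindle genes and 8 and 9 (0 to 2 and 1 to 2) for DNA replication. In that order the lists held 18, 38, 19, 12, 21, 41 and 40 tested genes. With both replicate 1 libraries removed, 25.8% of all tested genes were called higher and 27.1% lower, and no list was tested against these shares. With 1 library removed, 7.41% to 20.8% of all tested genes were called lower. Each member had at least 271 reads in each library, and the precision is limited by 3 libraries per group.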
